A study of Mus musculus with 9 samples.

Results

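The 41 genes described here are transcripts of skeletal muscle, together with the myosin gene of the eye muscles, Myh13. The list of names was selected on measured values, those of the AAP pools, in which muscle transcripts stood out from PBS. The values of the AAP pools are therefore given as a description with no test. All 41 were found on the array through the RefSeq accessions of 52 probes, out of 32496 genes and unnamed transcripts and 39429 probes in all. By role they comprised 14 fast fibre genes, 4 slow fibre genes, 1 extraocular gene, 13 genes of the sarcomere and its assembly, 2 genes of excitation-contraction coupling and 7 genes of energy metabolism. The extraocular part of the set thus rested on a single gene.

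The series measured total RNA of the retina on 9 single-colour Agilent mouse arrays, 3 in each group. Adult male C57BL/6 mice received an injection into the vitreous of the right eye, of phosphate-buffered saline (PBS, the negative control) or of AAP or HAN, peptides that the series title describes as directed at vascular endothelial growth factor, and the retina was taken after 7 days. No genotype other than C57BL/6 was given for any group, and a concentration of 1 µM was worded for PBS as well as for the peptides. Each group had 12 mice and each array measured a pool of 4 retinas dissected from enucleated eyes. The p-values therefore measure the spread between 3 pools, and a change in the number of muscle cells in a pool cannot be told apart from a change in RNA per cell.

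Striated muscle contracts when myosin heavy chains of the thick filament pull on actin, under the control of troponin, which binds calcium released from the sarcoplasmic reticulum. Fast and slow fibres use different genes for many of these proteins, and the muscles that move the eye add further myosins, among them Myh13 and the developmental chains Myh3 and Myh8. The retina itself holds no striated muscle, but the eye muscles insert on the sclera just outside it, and retinal neurons use some of the same genes, such as the calcium channel Cacna1s and the calcium buffer Pvalb.

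The labelled tissue was checked against its markers. All 12 rod photoreceptor genes were well above background on every PBS array, and their mean lay between -0.23 and 0.23 of the PBS mean on the log2 scale in all 9 pools. The 75th percentile of the signal ran from 1340 (AAP 3) to 2349 (PBS 1) intensity units, and the share of spots flagged well above background, a flag Agilent's software sets on spots clearly brighter than their surroundings, from 71.6% to 79.2%. The pools AAP 1 and AAP 3 stood apart from the other 7 in muscle genes. AAP 1 shared its slide with the 3 PBS arrays, AAP 2 and AAP 3 shared theirs with HAN 1 and HAN 2, and HAN 3 lay on a slide of its own. All levels below are log2 signals relative to the 75th percentile of their array, so that 0 is the 75th percentile and each unit is a doubling.

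Muscle genes were high in AAP 1 and AAP 3 and near the control level in AAP 2. The median over the 41 genes stood 3.01 log2 units above the PBS mean in AAP 1 and 2.25 above it in AAP 3, against -0.08 in AAP 2. In AAP 3 it was 1.26 after a normexp background correction and 1.41 with probes above background on all arrays alone. Over all genes these medians were 0.00, 0.07 and 0.02. In AAP 1, 29 of 41 members were at least 4-fold above the PBS mean, as were 1.86% of all genes, and 36 at least 2-fold, as were 4.05%. In AAP 3 the 4-fold count was 21 of 40, against 1.02% of all genes, and the 2-fold count 29 of 40, against 2.70%. At 4-fold, AAP 2 had 1 of 41 members (0.794% of all genes) and HAN 1, HAN 2 and HAN 3 had 0 of 41 each (0.825%, 0.699% and 1.59% of all genes). The same 21 members passed 4-fold in both AAP 1 and AAP 3, as did 0.222% of all genes, 72 in number. These counts take dim signals as measured. With signals that were not well above background in PBS raised to the faintest one that was, and members dim in the AAP pool itself left out, the counts were 29 in AAP 1, 0 in AAP 2 and 19 in AAP 3, without Myh13 and Trim54 in AAP 3. The share of all genes was not computed on this measure, and the shares above do not apply to it. Set against the HAN arrays of their own slide, HAN 1 and HAN 2, the medians were 2.07 in AAP 3 and -0.03 in AAP 2. The members nearest to the 4-fold line in AAP 1 were Tmod4 at 4.09-fold on the one side and Ryr1 at 3.96-fold on the other.

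**Figure D1:**
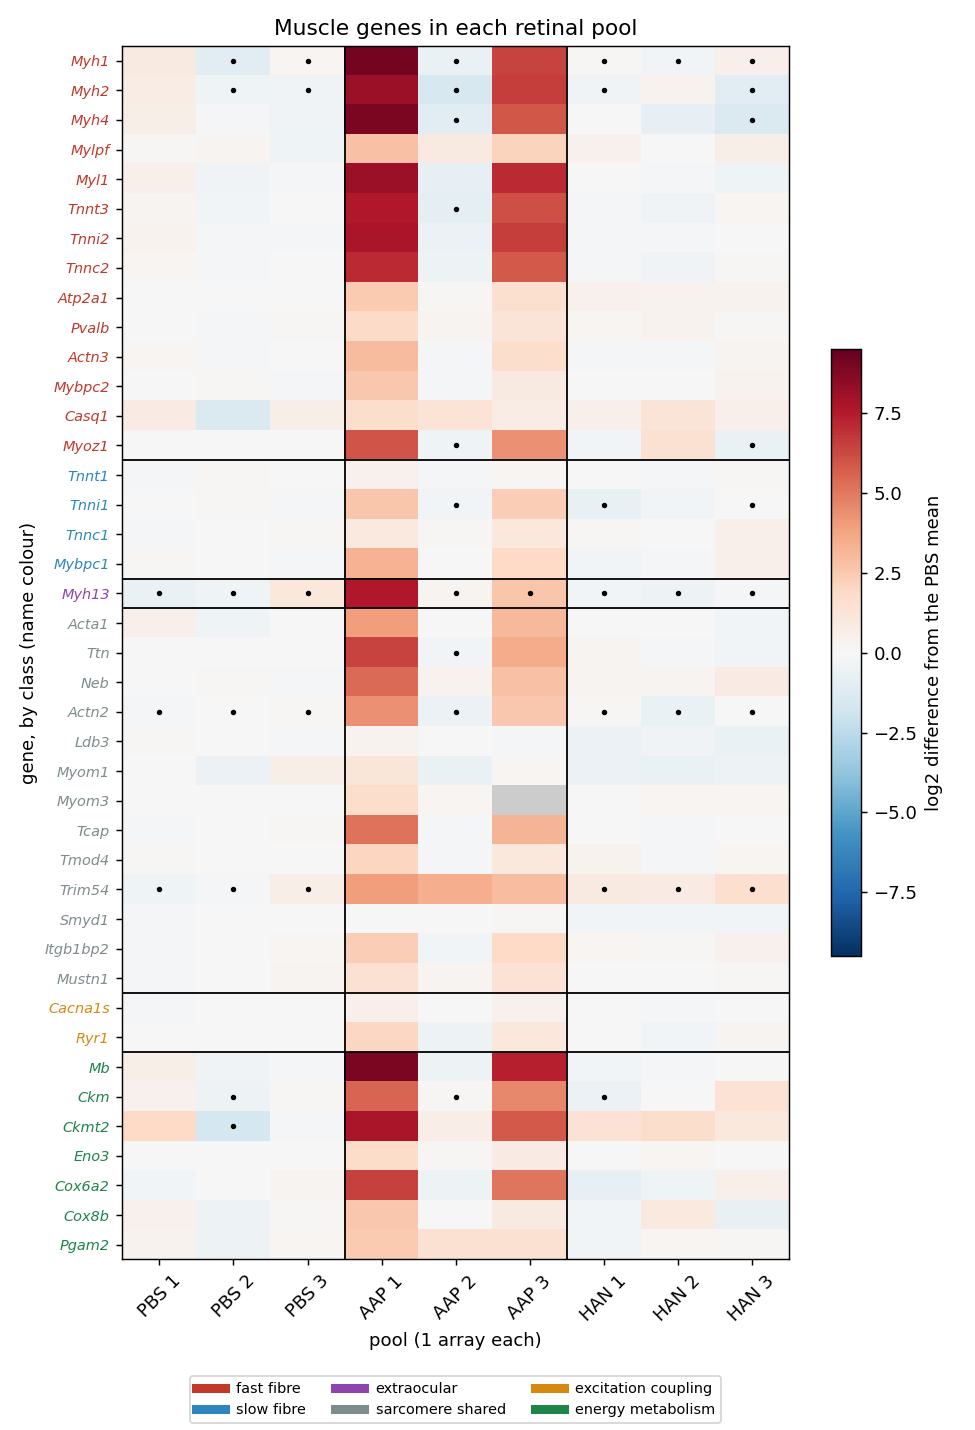
Heat map of the 41 muscle genes (rows, name colour by class) in the 9 pools (columns, 1 array each), as log2 difference from the PBS mean (colour), with dots where a probe was not well above background and grey where a value is missing. AAP 1 and AAP 3 form a pair of dark red columns, and the column of AAP 2 resembles those of PBS and HAN except for a few genes such as Trim54.

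Among the fast fibre genes the myosin heavy chains had the widest range. Myh4, the chain of the fastest limb fibres, stood at -4.73, -5.49 and -5.63 in PBS 1 to 3, at 3.67, -6.34 and 0.65 in AAP 1 to 3, and at -5.30, -6.04 and -6.67 in HAN 1 to 3. AAP 1 and AAP 3 were 495-fold and 61.0-fold above the PBS mean, while AAP 2 and HAN 3 were not well above background. Myh1, another fast chain, was well above background on only 3 arrays, PBS 1 (-6.58), AAP 1 (1.60) and AAP 3 (-1.0), which put AAP 1 535-fold and AAP 3 87.8-fold above the measured mean of the PBS arrays, and 312-fold and 51.2-fold above it with PBS 2 and PBS 3 raised to the faintest signal well above background. Myh2, the chain of fast oxidative fibres, was at 1.90 in AAP 1 and 0.39 in AAP 3, against -5.48 in PBS 1, -5.86 in HAN 2 and no signal well above background on the other 5 arrays. These chains have closely related sequences, and how far a probe also measures a paralog was not tested.

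The myosin that marks eye muscle was measurable in a single pool. Myh13, the superfast chain of extraocular and laryngeal muscle, stood at -0.71 in AAP 1, at least 70.7-fold above PBS, where no array was well above background. It was not well above background in AAP 2 (-8.03), AAP 3 (-5.68) or any HAN array (-8.76 to -8.40), so that AAP 3 gives no bound. Myh13 was among 3 of 41 members that were well above background on no PBS and no HAN array (17.6% of all genes), with the Z-disc protein Actn2 and the ubiquitin ligase Trim54.

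The promoters of Myh4 and Myh13, which lie in the same myosin gene cluster, are shown because these genes separate AAP 1 from AAP 3 most clearly. Each sequence is taken from RefSeq, build GRCm38.p6, and runs from 250 bases before to 50 bases after the gene's start, read 5′ to 3′ on the gene's strand. Capitals mark E-boxes (CANNTG, the kind of site that MyoD family factors bind), the CArG box (bound by serum response factor) and TATAAA on either strand. In the table's order the cluster runs Myh3, Myh2, Myh1, Myh4, Myh8, Myh13.
Myh4, chr11:67237562-67237861, plus strand: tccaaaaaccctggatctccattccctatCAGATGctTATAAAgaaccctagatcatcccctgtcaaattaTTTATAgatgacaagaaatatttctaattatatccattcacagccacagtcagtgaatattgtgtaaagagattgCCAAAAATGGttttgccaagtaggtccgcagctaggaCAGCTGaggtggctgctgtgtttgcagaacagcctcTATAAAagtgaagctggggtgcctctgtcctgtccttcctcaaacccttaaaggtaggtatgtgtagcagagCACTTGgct
Myh13, chr11:67326853-67327152, plus strand: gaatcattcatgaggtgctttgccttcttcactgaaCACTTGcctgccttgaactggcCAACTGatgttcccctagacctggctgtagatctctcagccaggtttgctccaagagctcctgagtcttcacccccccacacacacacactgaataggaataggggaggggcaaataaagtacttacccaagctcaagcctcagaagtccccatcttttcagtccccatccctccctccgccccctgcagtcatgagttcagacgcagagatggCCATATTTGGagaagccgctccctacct
In Myh4 the CArG box lies 104 bases before the start and a TATAAA 31 bases before it. In Myh13 the letters of a CArG box lie 22 bases after the start, behind an ATG. From that ATG the letters form an open reading frame through the match, which may thus be coding sequence and not a promoter site. No TATAAA is in the Myh13 window.

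The light chain and troponin genes of fast fibres followed the heavy chains. Myl1, the essential light chain of fast myosin, stood at -3.15, -3.98 and -3.79 in PBS, at 4.49, -4.41 and 3.43 in AAP and at -3.69, -3.84 and -4.03 in HAN. AAP 1 exceeded the PBS mean 280-fold and AAP 3 134-fold, with AAP 2 below all 3 PBS pools. These values are of the brightest probe. The other probe of Myl1 stood at -0.48 in AAP 1, -1.25 in AAP 3 and -5.02 in PBS 1. It was not well above background on any other array. Tnni2, the inhibitory subunit of fast troponin, reached 4.88 in AAP 1 and 3.63 in AAP 3, against -3.49 to -2.56 in the other 7 pools. Tnnc2, the calcium-binding subunit, was 134-fold (AAP 1) and 57.1-fold (AAP 3) above the PBS mean, and Tnnt3, the subunit that binds tropomyosin, 197-fold and 71.0-fold. The regulatory light chain gene Mylpf differed less on its probe, by 6.72-fold and 4.44-fold.

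The remaining fast fibre genes showed smaller differences. Myoz1, a Z-disc protein of fast fibres, was 62.5-fold (AAP 1) and 20.6-fold (AAP 3) above the PBS mean, and was also at -4.76 in HAN 2 against -6.24 to -6.18 in PBS. Actn3, the fast fibre actinin, was 8.07-fold and 3.10-fold above the PBS mean. The myosin-binding protein Mybpc2 was at 5.85-fold and 1.82-fold, and the reticulum calcium pump Atp2a1 at 5.65-fold and 2.94-fold. Casq1, the calcium store protein of the reticulum, spanned -6.66 to -4.50 within PBS alone. AAP 3 (-4.56) lay inside that range, while AAP 1 (-3.61) and AAP 2 (-3.96) lay above it.

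**Figure D2:**
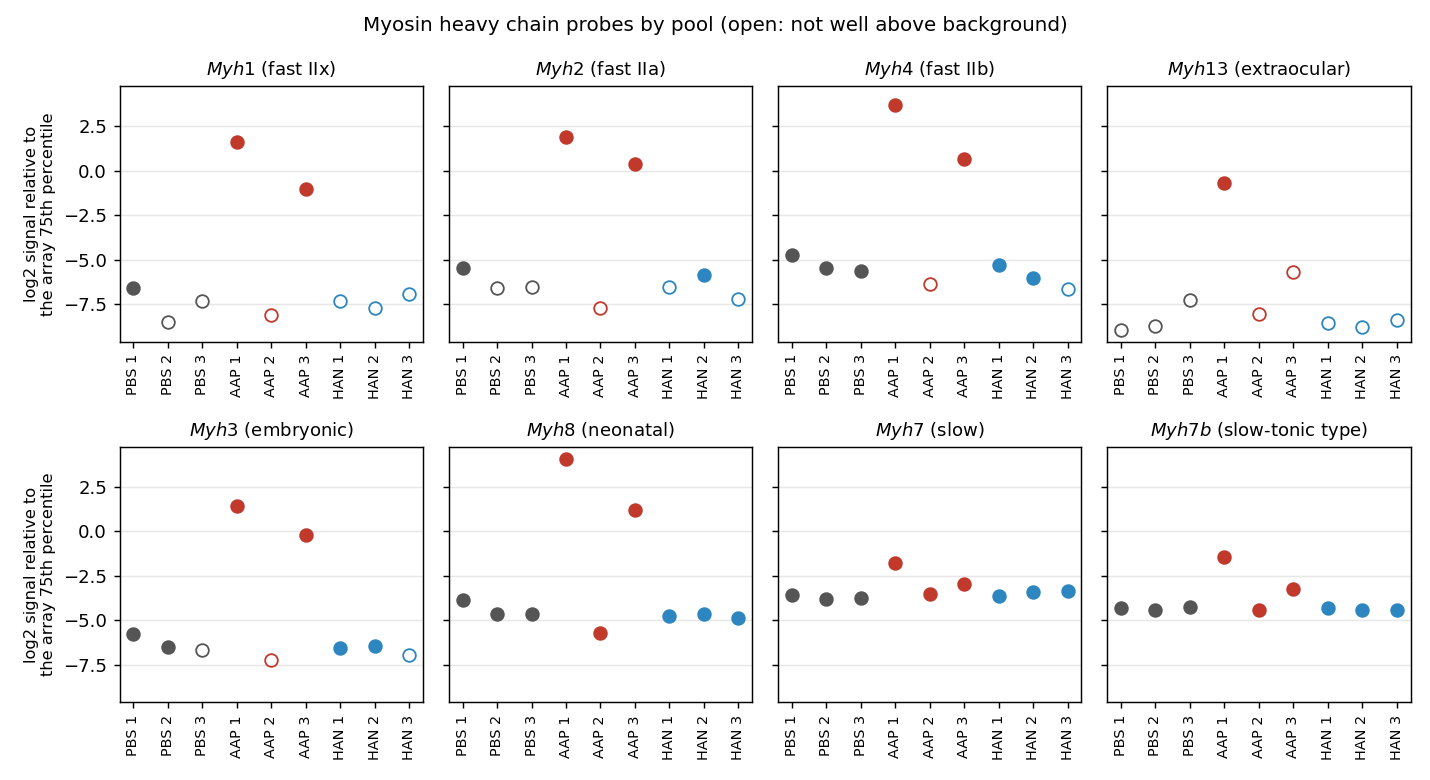
Log2 signal relative to the array's 75th percentile (vertical axis) for probes of myosin heavy chain genes in each of the 9 pools (horizontal axis), with open symbols where the probe was not well above background. AAP 1 is the highest pool in every panel, and Myh13 has a filled symbol in AAP 1 only.

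Slow fibre genes had smaller folds than fast ones. Their 4 members stood by a median of 1.79 above the PBS mean in AAP 1 and 1.44 in AAP 3, against 6.52 and 5.10 for the 14 fast members. Mybpc1, the slow myosin-binding protein, was at -0.52 in AAP 1 and -1.99 in AAP 3, and at -4.13 to -3.39 in the other pools. Tnni1, the slow inhibitory troponin, was 6.19-fold and 5.12-fold above the PBS mean. Tnnc1, the troponin C that slow fibres share with heart, was at -3.37 in AAP 1 and -3.31 in AAP 3, and the other pools spanned -4.45 to -3.83.

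Tnnt1, slow troponin T, had a high level in every pool. It stood at 1.99, 2.27 and 2.17 in PBS, at 2.54, 2.05 and 2.31 in AAP and at 2.2, 2.0 and 2.25 in HAN. AAP 1 was the highest pool, 1.32-fold above the PBS mean, and AAP 3 exceeded the highest PBS pool by little. A fold over a gene's own level in the retina shrinks as that level rises, so the fast and slow folds do not share a scale.

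To compare the pools without that effect, the linear signal above the PBS mean was taken in AAP 1 and divided by the same in AAP 3, probe by probe. The ratio had a median of 2.79 over the 35 members where it could be formed, from 0.907 for Tnnc1 to 8.23 for Myh4. Fast members had a median of 2.79 (n = 13, from 1.67 for Mylpf to 8.23 for Myh4). Slow members had a median of 1.91 (n = 4, from 0.907 for Tnnc1 to 3.44 for Mybpc1), so the ranges overlapped. The ratio of Tnnt1, 2.55, is imprecise. In AAP 3 this gene lay 0.17 log2 units above the PBS mean, beside a PBS SD of 0.14. Among these 35 members the ratio was highest for Myh4 (8.23), Ttn (7.85), Neb (6.62) and Myh1 (6.16). Myh13 had no ratio because it was not well above background in AAP 3. Its measured signal was 4.97 log2 units higher in AAP 1. Of 40 members measured in both pools, 38 were higher in AAP 1, compared with 38.8% of all genes, and the exceptions were Tnnc1 and Smyd1.

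**Figure D3:**
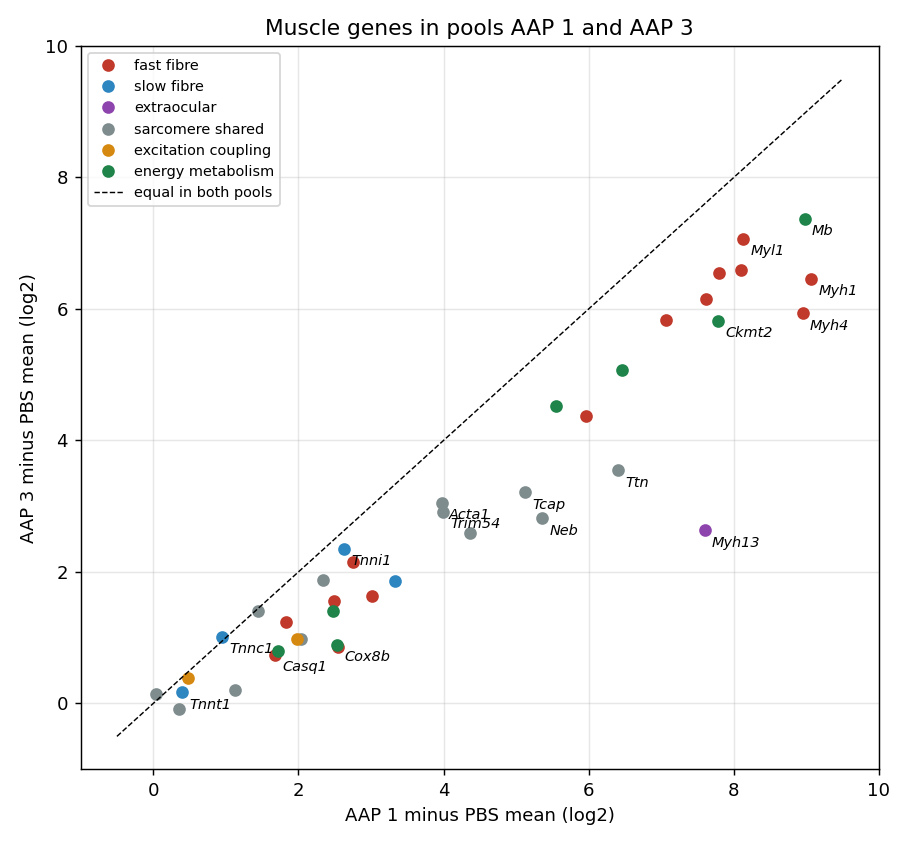
Difference from the PBS mean in AAP 1 (horizontal axis) against AAP 3 (vertical axis), both in log2 units, with 1 point per muscle gene coloured by class and a dashed line where both pools are equal. Nearly all points lie below the line, and Myh4, Ttn and Neb lie farther below it than Tnnc1 or Mustn1.

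Genes that both fibre types use in the sarcomere ranged from large differences to none. Acta1, skeletal actin, stood at -2.56, -3.45 and -3.09 in PBS, at 0.94, -2.99 and 0.02 in AAP and at -3.05, -3.06 and -3.28 in HAN. AAP 1 and AAP 3 were thus 15.7-fold and 8.30-fold above the PBS mean, with no overlap with the other 7 pools. Ttn, the spring protein titin, was 84.9-fold and 11.7-fold above it, Neb, the thin filament ruler nebulin, 40.9-fold and 7.04-fold, and Tcap, which caps titin at the Z-disc, 34.8-fold and 9.26-fold. Actn2 was at least 20.6-fold (AAP 1) and 6.02-fold (AAP 3) above PBS, where no array was well above background.

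The promoter of Acta1 is shown because it holds a CArG box before the start, as that of Myh4 does. That of Tnnt1 is shown because its gene was high in all pools. Like most members with a promoter, Tnnt1 has no CArG box in the window. Build, window and capitals are as above.
Acta1, chr8:123894726-123895025, minus strand: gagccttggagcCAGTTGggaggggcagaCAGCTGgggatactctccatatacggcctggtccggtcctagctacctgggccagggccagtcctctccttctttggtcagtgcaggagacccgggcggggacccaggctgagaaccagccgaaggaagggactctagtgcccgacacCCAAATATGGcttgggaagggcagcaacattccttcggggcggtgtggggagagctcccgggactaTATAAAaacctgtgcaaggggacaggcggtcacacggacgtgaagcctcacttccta
Tnnt1, chr7:4515926-4516225, minus strand: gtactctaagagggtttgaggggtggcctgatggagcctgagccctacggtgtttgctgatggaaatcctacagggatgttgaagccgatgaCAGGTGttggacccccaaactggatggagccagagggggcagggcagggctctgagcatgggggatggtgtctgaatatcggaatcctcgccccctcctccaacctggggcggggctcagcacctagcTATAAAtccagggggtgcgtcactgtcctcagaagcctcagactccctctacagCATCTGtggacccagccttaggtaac
Of the 41 members, 33 had a promoter in the RefSeq table. A CArG box was in 5 of the 33 (Acta1, Ldb3, Myh13, Myh4 and Myom1), or 15.2%, against 1.81% of all genes with a promoter there. For members and for all genes this counts matches after the start too, such as that of Myh13. E-boxes were in 27 of the 33, or 81.8%, against 75% of all genes, TATAAA in 8, or 24.2%, against 15.7%, and the site of the MEF2 factors in Ttn alone, or 3.03%, against 0.636%. A match describes the letters of the window only. Of the 5 genes with a CArG box, Myh4, Myh13 and Acta1 were at least 4-fold above PBS in AAP 1. So were 29 of all 41 members (70.7%) and 1.86% of all genes, so the 5 do not stand out among the members. Myom1 was at 2.19-fold and the brightest probe of Ldb3 at 1.28-fold.

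The other sarcomere genes had lower values. Itgb1bp2 (melusin) was at 5.04-fold in AAP 1 and 3.67-fold in AAP 3, Tmod4, a cap of the thin filament, at 4.09-fold and 1.97-fold, and Mustn1 at 2.72-fold and 2.65-fold. Myom3, an M-band protein, was at -1.27 in AAP 1 against -2.99 to -2.72 in the 7 other pools with a value, and its spot in AAP 3 was an outlier and was left out. Myom1, also of the M-band, was at -1.69 in AAP 1, while AAP 3 (-2.62) lay within the PBS range of -3.41 to -2.30. Smyd1, a methyltransferase needed for myosin assembly, was flat on its brightest probe, with AAP 1 at -0.26 and PBS from -0.38 to -0.26, and its other probe was 0.92 (AAP 1) and 1.12 (AAP 3) above the PBS mean. Likewise, the brightest probe of Ldb3, a Z-disc linker, gave 1.28-fold in AAP 1 and its other probe a difference of 2.22 on the log2 scale. The other probe of Smyd1 had a PBS mean near the faintest signals well above background, and every HAN pool also lay above PBS on it.

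Trim54 did not follow the division between the AAP pools. This ubiquitin ligase of the muscle microtubule network stood at -4.85, -5.41 and -5.93 in AAP 1 to 3 and was not well above background on any PBS array (-9.25 to -8.30) or HAN array (-8.06 to -7.23). All 3 AAP pools were above all others, at least 4.0-fold, 2.73-fold and 1.90-fold above PBS. It was the only member at least 4-fold above the measured PBS mean in AAP 2, and it had 1 probe. In AAP 2, 10 of 41 members were above all 3 PBS pools (33.0% of all genes were) and 17 were below them (21.5% of all genes were), among them Myl1, Tnni2, Tnnc2, Tnnt3, Myh4 and Mb.

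Both coupling genes were measured in all pools. Ryr1, the calcium release channel, was at -2.55 in AAP 1 and -3.55 in AAP 3, against -5.02 to -4.28 elsewhere. Cacna1s, the voltage sensor that opens it, stood at 1.26, 1.41 and 1.40 in PBS, 1.85, 1.34 and 1.74 in AAP and 1.29, 1.24 and 1.37 in HAN. Its level in AAP 1 and AAP 3 exceeded that of the other 7 pools, by 1.40-fold and 1.30-fold over the PBS mean.

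Genes of muscle energy supply stood by a median of 5.55 above the PBS mean in AAP 1 and 4.53 in AAP 3. Myoglobin (Mb), the oxygen store of red fibres, was at -4.92, -5.84 and -5.70 in PBS, 3.49, -6.00 and 1.88 in AAP and -5.78, -5.69 and -5.47 in HAN. Cox6a2, the muscle subunit of cytochrome oxidase, was 88.0-fold (AAP 1) and 33.8-fold (AAP 3) above the PBS mean, and Ckm, the cytosolic creatine kinase, 46.7-fold and 23.1-fold, with 2 of 3 PBS arrays well above background. Ckmt2, the mitochondrial creatine kinase, reached 2.51 and 0.55, but its PBS arrays ran from -6.96 to -3.40 and its HAN arrays from -4.27 to -3.62.

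Cox8b, Eno3 and Pgam2 completed this class. Cox8b, another muscle subunit of cytochrome oxidase, stood at 3.67 in AAP 1, while AAP 3 (2.02) lay below HAN 2 (2.10). Eno3, the muscle enolase, was at 3.35 and 2.43 in AAP 1 and AAP 3 and at 1.56 to 1.81 in the other 7 pools. Pgam2, the muscle phosphoglycerate mutase, stood at 0.81, -0.18 and -0.25 in AAP 1 to 3, all above the PBS range of -2.15 to -1.36. Over the whole set, 9 of 41 members had all 3 AAP pools above all 3 PBS pools (15.7% of all genes did) and none had them all below (4.74% did). Those 9 were Mylpf, Atp2a1, Pvalb, Tnnc1, Neb, Myom3 (over AAP 1 and AAP 2 only), Trim54, Eno3 and Pgam2.

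Several muscle genes had a level in retinas of pools without the muscle pattern. Of the 41 members, 31 were well above background on all 6 PBS and HAN arrays on their brightest probe, or 75.6%, near the 71.3% of all genes. Myl1 is among these 31, but of these 6 arrays its other probe was well above background on PBS 1 only. In all 9 pools the brightest probes of Tnnt1, Cacna1s, Eno3, Pvalb and Cox8b lay above the 75th percentile of their array. The second probe of Cacna1s lay below it in all 9 pools (-2.29 to -1.40), and that of Pvalb in all but AAP 1 (1.19) and AAP 3 (0.37). Pvalb, the calcium buffer of fast fibres and of some retinal neurons, stood at 0.93, 0.87 and 1.07 in PBS, at 2.79, 1.26 and 2.20 in AAP and at 1.13, 1.27 and 1.03 in HAN. Over the 6 PBS and HAN arrays, Cacna1s, Eno3 and Tnnt1 stayed within narrow ranges, of 1.24 to 1.41, 1.56 to 1.81 and 1.99 to 2.27, whereas Cox8b ranged from 0.44 to 2.10.

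**Figure D4:**
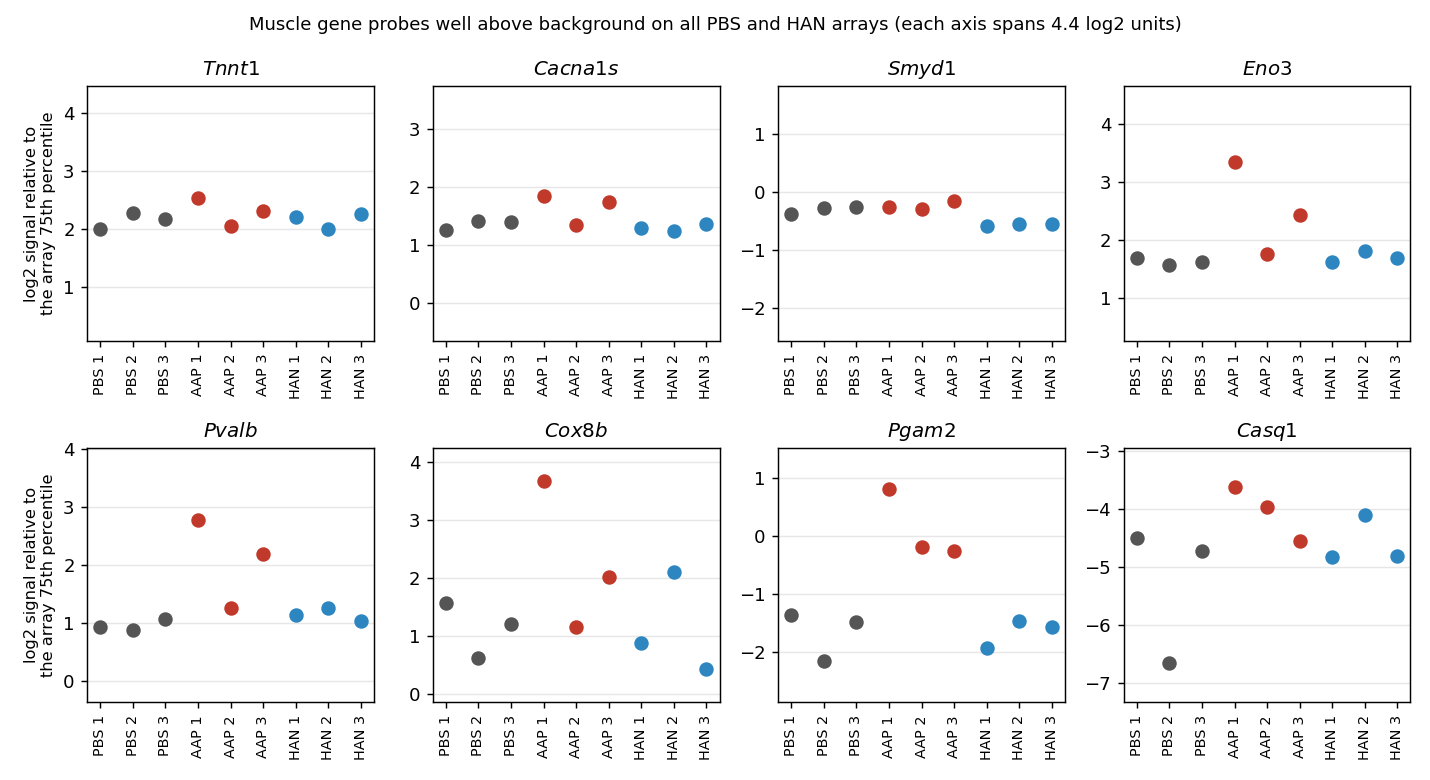
Log2 signal relative to the array's 75th percentile (vertical axis, spanning 4.4 units in each panel) in the 9 pools (horizontal axis) for selected muscle genes that were well above background on all PBS and HAN arrays. Tnnt1 and Cacna1s are nearly level across pools, whereas Pvalb and Eno3 stand higher in AAP 1 and AAP 3.

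The PBS pools also differed among themselves. PBS 1 was the highest PBS pool for 21 of 41 members (31.3% of all genes), and PBS 2 the lowest for 21 (26.2% of all genes). Fast fibre genes averaged 0.32, -0.27 and -0.04 against the PBS mean in PBS 1 to 3, and energy genes 0.49, -0.52 and 0.03. In Ckmt2, PBS 1 exceeded PBS 2 by the difference between -3.40 and -6.96, the latter not well above background. On the other probe of Myl1, PBS 1 stood at -5.02. PBS 2 (-9.11) and PBS 3 (-8.94) were not well above background there. The median SD of a member over 3 pools was 0.16 in PBS, 0.25 in HAN and 1.57 in AAP.

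HAN against PBS is the comparison that did not enter the choice of members, apart from PBS as the reference. No muscle gene passed the test. In the limma model of all 9 arrays, 36 members were kept (Trim54 only through AAP) and 0 were called at an adjusted p under 0.05 (3 had an unadjusted p under 0.05), when 1 of 23895 genes (0.00418%) was called and 2307 had an unadjusted p under 0.05. The median difference over the 36 tested members was 0.005 log2 units, equal to the 0.005 over all genes tested. Over all 41 members it was 0.003, beside 0.04 over all genes on the array. Because the model shares its spread over all groups, AAP 1 and AAP 3 widened the intervals of the muscle genes, to between -4.87 and 4.44 for Myl1, for instance. A fit of the 6 PBS and HAN arrays alone, added after the data were seen, kept 35 members and called 0 of them, when it called 1 of 23882 genes (0.00419%). There, 4 of 35 members had an unadjusted p under 0.05, against 12.8% of all genes, and the half-width of a member's 95% interval had a median of 0.36.

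The members with the clearest separation between HAN and PBS were few. Atp2a1 was 0.35 higher in HAN (95% interval 0.21 to 0.48, limma adjusted p = 0.292 in the fit of 6 arrays and 0.859 in that of 9), at -3.91 to -3.83 in HAN against -4.26 to -4.19 in PBS. Neb was 0.45 higher (0.06 to 0.84, limma adjusted p = 0.348 and 0.920). Lower in HAN were Ldb3, by a difference of -0.51 (-0.78 to -0.24, limma adjusted p = 0.292 and 0.390), and Smyd1, by -0.26 (-0.41 to -0.12, limma adjusted p = 0.292 and 0.370). The second probe of each of these 2 genes was not lower in HAN. That of Ldb3 averaged -4.09 in HAN and -4.22 in PBS. That of Smyd1 averaged -6.06 and -6.85, with each HAN pool above all PBS pools. Its PBS mean lay near the faintest signals well above background on the PBS arrays (-7.10 to -6.65). On the brightest probes, HAN and PBS pools did not overlap in 5 of 41 members, against 16.6% of all genes. They were these 4 and Trim54, which entered the model of 9 arrays only through its AAP arrays and had no PBS or HAN array well above background, so that its difference is not given. For the main contractile genes the fit of 6 arrays gave intervals of -0.77 to 0.34 for Myl1, -0.52 to 0.28 for Tnni2 and -0.66 to 0.46 for Acta1, and -1.72 to 0.27 for Myh4. No array of HAN shares a slide with PBS, so that slide and group cannot be told apart here.

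Across all genes the same model called 1 gene between AAP and PBS (0.00418% of 23895) and 0 between AAP and HAN (0.00%), with 1620 and 2040 genes at an unadjusted p under 0.05. Leaving out AAP 2 raised these counts to 43 and 28.

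Muscle genes outside the set were high in the same pools. Of 78 such genes measured, 63 were above all 3 PBS pools in AAP 1 (31.9% of all genes), 17 in AAP 2 (33.0% of all genes) and 53 in AAP 3 (44.6% of all genes). Their medians were 1.06, -0.02 and 0.44 log2 units above the PBS mean, and between HAN and PBS limma called 0 of 54 tested in the model of 9 arrays, with 2 at an unadjusted p under 0.05. The developmental myosins were among the highest. Myh8, the perinatal chain, stood at -3.87, -4.67 and -4.62 in PBS, 4.09, -5.72 and 1.23 in AAP and -4.73, -4.65 and -4.88 in HAN, and Myh3, the embryonic chain, at 1.42 in AAP 1 and -0.23 in AAP 3. Myl6b was 0.50 and 0.20 above the PBS mean.

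Genes that slow muscle shares with the heart were divided. Sln, the small regulator of the calcium pump, was 7.54 (AAP 1) and 6.78 (AAP 3) log2 units above the measured PBS mean with 1 PBS array well above background, or 182-fold and 107-fold with the other PBS arrays raised to the faintest signal well above background. Myoz2, a Z-disc protein of slow and cardiac muscle, was at least 22.4-fold and 11.8-fold above PBS. Myl2, the slow and ventricular light chain, was higher in AAP 3 (-0.39) than in AAP 1 (-1.04), against -4.46 to -2.28 elsewhere. The slow chain Myh7 differed by 1.92 and 0.73, Myh7b by 2.88 and 1.1, and Myl3 by 1.31 and 0.75. The heart genes Tnnt2 (-0.55 and -1.81) and Tnni3 (0.36 and -0.19) did not share the pattern.

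From the lists of fibre structure and metabolism, the 3 highest genes of each are named. Over the 32 structure genes measured, the median stood 0.78 (AAP 1) and 0.42 (AAP 3) log2 units above the PBS mean. Over the 13 metabolism genes it stood 0.95 and 0.37 above. Myot (myotilin, a Z-disc protein) was at least 109-fold (AAP 1) and 26.6-fold (AAP 3) above PBS. Trdn (triadin, of the calcium release complex) was at least 37.7-fold and 8.89-fold above PBS. Des (desmin, the intermediate filament of muscle) was at least 13-fold and 4.06-fold above PBS. Art1, a surface ADP-ribosyltransferase of muscle, was at least 23.1-fold and 7.39-fold above it. Cardiac actin, Actc1, differed by 4.38 and 1.39 on the log2 scale, and Cox7a1, a muscle subunit of cytochrome oxidase, by 2.19 and 1.16.

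The list of the neuromuscular junction and of muscle formation had 14 genes. Of these, 9 were above all 3 PBS pools in AAP 1 (31.9% of all genes), 3 in AAP 2 (33.0%) and 8 in AAP 3 (44.6%). Their median differences from the PBS mean were 0.98, -0.10 and 0.26 log2 units. Chrna1, a subunit of the acetylcholine receptor, was at least 14.2-fold above PBS in AAP 1 but not well above background in AAP 3. Chrne, the adult subunit, was at least 1.99-fold above PBS in AAP 1, and the fetal subunit Chrng was at -6.23 there against -6.34 to -6.25 in PBS. Of the factors that specify muscle, Myod1 stood at -5.76 in AAP 1 and -5.37 in AAP 3 against -5.67 to -5.63 in PBS, and Myog was not well above background on any array. Myf6, the factor kept on in adult fibres, was 1.66 and 0.95 above the PBS mean, and Mstn, the growth inhibitor myostatin, 1.60 and 0.61, the latter not well above background.

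Outside all lists, the genes most like this pattern were ranked by the lower of their differences from the PBS mean in AAP 1 and AAP 3, over 2 AAP pools and 3 PBS pools. The first 15 with a curated RefSeq messenger RNA were Myh15, Smtnl1, Fitm1, Yipf7, Dhrs7c, Slc44a4, Epyc, Retnla, Rpl3l, Tbx15, Vgll2, Pi16, Cd209f, Meox2 and Dpt. Myh15, a further myosin heavy chain, stood at -0.24 in AAP 1 and -1.47 in AAP 3, and also at -3.72 in HAN 3. Smtnl1 was at least 28.4-fold and 9.33-fold above PBS, Fitm1 20.9-fold and 16.0-fold, and Dhrs7c 18.5-fold and 6.04-fold, each with AAP 2 not well above background. Retnla was high in PBS 1 as well, at -1.89 against 0.58 in AAP 1 and -2.22 in AAP 3. Meox2 was well above background in every HAN pool (-6.07 to -5.39), beside -5.33 in AAP 3. Dpt was not well above background in AAP 3.

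Markers of other tissues around the retina were compared over the same pools, as means over each list relative to PBS. Tendon and fibroblast genes stood at 1.1 in AAP 1 and 0.38 in AAP 3, against 0.53, -0.37 and -0.16 in PBS and -0.53 in AAP 2, with 8, 1 and 6 of 12 above all PBS pools in AAP 1 to 3, against 31.9%, 33.0% and 44.6% of all genes. Among them, the tendon gene Tnmd was not well above background on any array, and the collagen gene Col1a1 was at 0.34, -3.13 and -0.49 in AAP and at -0.66, -2.28 and -2.38 in PBS. Orbital fat genes were at 1.73 in AAP 1 and -0.26 in AAP 3, and Adipoq was at -2.04 in AAP 1 and not well above background in AAP 3. Cornea and conjunctiva genes were at 3.21 in AAP 1 and -1.03 in AAP 3, but also at 1.98 in PBS 1, where the cornea keratin Krt12 was at 2.20 against -2.69 in AAP 1. In AAP 1 high muscle genes thus stood beside high fat and surface epithelium lists, and in AAP 3 those lists lay below the PBS mean.

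Smooth muscle genes stood at -0.08 in AAP 1 and -1.02 in AAP 3, against 0.46, -0.16 and -0.30 in PBS. Peripheral nerve genes were at -0.32 and -0.50, and those of the pigment epithelium and choroid at -0.05 and -0.64. Red cell genes were at 0.76 in AAP 1 and -0.44 in AAP 3. Lens genes stood at -1.46 and -2.02 in AAP 1 and AAP 3 and 2.43 in AAP 2, but PBS 2 was at -2.21 as well. What part these tissues had in the muscle values was not tested.

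**Figure D5:**
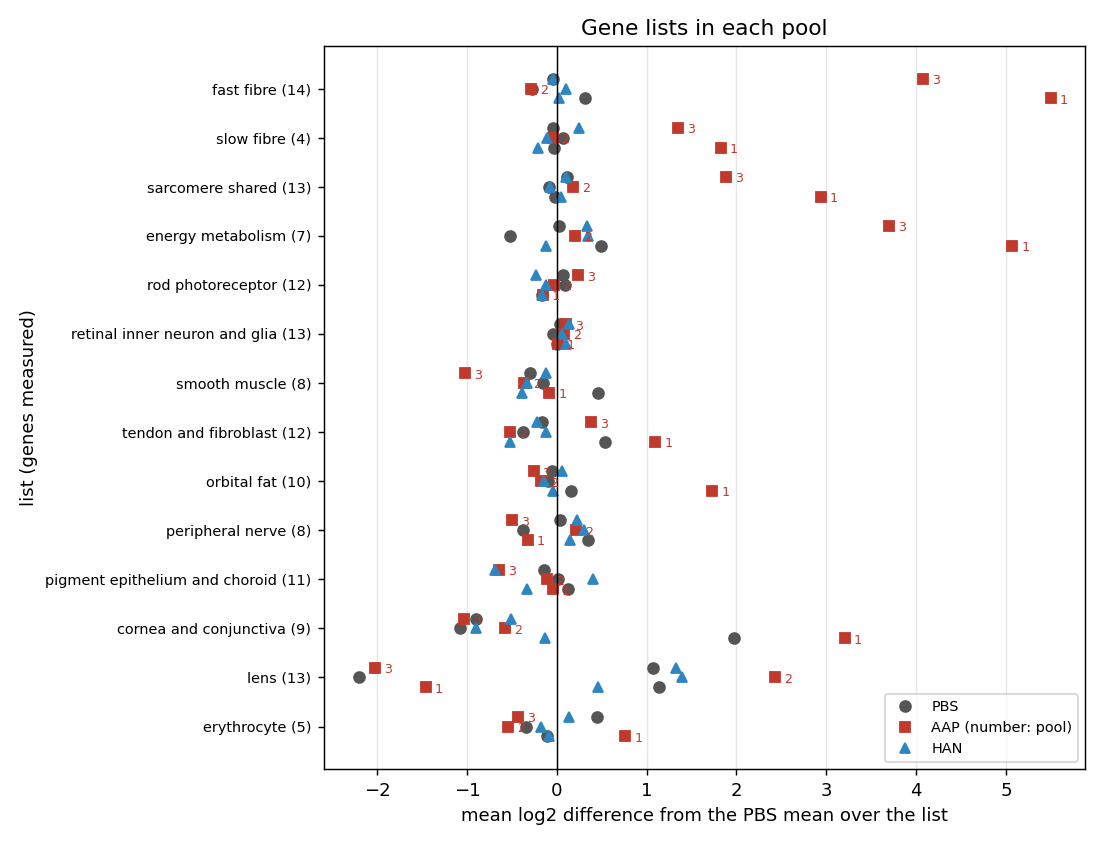
Mean log2 difference from the PBS mean (horizontal axis) over each gene list (rows, genes measured in parentheses) in the 9 pools, with AAP pools numbered. The fast fibre and energy lists lie at 5.50 and 5.07 in AAP 1 and at 4.08 and 3.70 in AAP 3, while the rod list stays between -0.16 and 0.23 in all AAP and PBS pools.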

How the data were processed

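The members and the lists were chosen with earlier results of these data known. Per the file headers, the authors quantified spot intensity with Feature Extraction 11.0.1.1 (protocol GE1_1100_Jul11, array design on build mm9), and the deposited processed signal is a linear intensity that was not scaled between arrays. The deposited scanner flag "well above background" was used as it stood, per spot. The authors' deposited value table was the same linear intensity: in each column 99.7% or more of the values matched a probe's averaged processed signal within a relative tolerance of 0.0001. Its column medians were 298.3, 256.4 and 231.9 (PBS 1 to 3), 265.5, 237.6 and 164.7 (AAP 1 to 3) and 251.1, 242.5 and 296.5 (HAN 1 to 3). With positive values on a linear scale its scale, centring and direction are settled.

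Control spots and outlier spots (103 to 160 an array) were left out, and no spot was saturated. The log2 signal had its array's 75th percentile subtracted, and the brightest probe stood for a gene (32 members had 1 probe, 9 several). For the members no filter on dim probes was applied to the values shown. Probes were named through RefSeq accessions (GRCm38.p6): 26055 probes matched 19751 symbols and 13374 did not. Where no array of a group was well above background, a fold is "at least": on each dim array the probe was set to the faintest signal that still counted as well above background there, or to its own if that was brighter, before averaging. The test was limma 3.58.1 (R 4.3.3, lmFit and eBayes, two-sided) with a mean per group on 23895 genes that were well above background on all arrays of at least 1 group, adjusted by Benjamini-Hochberg, with 6 residual and 1.85 prior degrees of freedom; it was tested on simulated data. The fit of 6 arrays had 4 residual degrees of freedom. The number of arrays limits the precision: in the fit of 9 arrays the half-width of the 95% interval had a median of 1.18-fold over all genes tested. For members in HAN against PBS it ran from 0.14 log2 units (Smyd1) to 4.96 (Myh4). Named genes are every member, fixed names by role and the 3 highest of each further muscle list, and the 15 outside the lists most like the pattern. A gene named by this rule is not reported here. Alternatives were the background correction (normexp, on the median signal since the files hold no mean signal), quantile and median scaling, the value table, filters, the rule for probes, slide and replicate blocks, array weights and each array left out.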

Additional observations from a re-analysis of the deposited data

How the results depend on the processing

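With 3 pools a group and 1 probe for most members, few arrays limit every test. Under all 21 alternatives for the comparison of HAN with PBS, 0 muscle genes were called by limma. The number of genes called between AAP and PBS, 1 in the model of 9 arrays, was 0 with normexp, with quantile scaling, with array median scaling, without a filter on dim probes and with a replicate block, was 46 with slide as a fixed block, and ran from 0 to 43 when each array was left out (43 without AAP 2, and 0 without PBS 1, PBS 3, AAP 3, HAN 1, HAN 2 or HAN 3). Between HAN and PBS, also 1, it was 0 with normexp and with the replicate block, 2 with slide as a fixed block and 3 with array weights, and ran from 1 to 10 with an array left out (10 without HAN 1, 4 without HAN 2, 3 without HAN 3 or PBS 3, and 2 without PBS 2). Between AAP and HAN, 0 became 0 to 28 (28 without AAP 2, and 2 without HAN 1 or HAN 3). Correlations between same-numbered pools ran from -0.28 to 0.40, within the range of -0.62 to 0.54 for pools of other numbers. The main fit therefore used no pairing, although so few pools cannot exclude one.

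The muscle medians kept their direction in AAP 1, at 2.31 with normexp and 2.47 with probes above background on all arrays, which keeps fewer genes. In AAP 3 they were 1.26 with normexp, 1.41 with probes above background on all arrays, 2.08 with the mean of probes and 2.07 within slide 2. The median between HAN and PBS over all 41 members, 0.003, was 0.62 with normexp, which also moved the median of all genes to 0.39, 0.48 with slide as a random block and 2.15 with slide as a fixed block, a fit that links HAN with PBS only through the AAP arrays. The median of AAP 1 minus AAP 3 was 1.31 for fast members (1.06 with probes above background on all arrays and 1.48 as excess on the linear scale, as log2) and 0.25 for slow members (0.84 as excess). The cause of the other moves was not tested. The count of members well above background on all PBS and HAN arrays ran from 31 to 33, and was 39 with the laxer flag of a signal significantly above background.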
